A study of Mus musculus with 6 samples.

Results

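The genes described here mark committed, premyelinating oligodendrocytes, and they were taken by name from a table of read counts per gene: Bcas1, Enpp6, Myrf, Gpr17, Tcf7l2, Itpr2, Nkx2-2, Tmem2, Zfp488 and Nkx6-2. The members were chosen with earlier results of these data known. All 10 were found among the 27372 genes of the table, and all 10 had enough counts to be tested. The counts come from 6 bulk RNA-seq libraries of neural stem cells isolated from mice at postnatal day 7 and grown as neurospheres for 7 days before RNA extraction. The 3 control libraries carry the genotype label WT, and the other 3 carry the label Sirt6 knockout, which the series describes as a conditional knockout. Which Cre line was used, and in which cells it acts, the sources used here do not say. Both groups were grown in the same DMEM/F12 proliferation medium, with EGF and bFGF at 20 ng/ml each, B27 at 2% and BSA at 0.2%. The study asks how loss of Sirt6, a nuclear NAD-dependent deacylase, affects these cells.

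Oligodendrocytes arise from dividing progenitors that leave the cell cycle, pass through a short committed stage, and then either mature into myelin-forming cells or die. The committed stage is known for a set of genes that are switched on briefly, such as the receptor gene Gpr17, and for transcription factors such as Myrf that go on to activate the genes of myelin. Neural stem cells of the postnatal brain can produce this lineage, and mitogens in the culture medium favour its dividing stages.

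Library totals ran from 17198852 to 18297275 counts, so 1 CPM, the count scaled to a common library size with TMM factors, stood for 16.7 to 18.6 counts. Sirt6 itself was not lower under the knockout label: it stood at 21.9, 15.8 and 14.9 CPM in controls 1, 2 and 3 and at 25.6, 29.4 and 25.3 CPM in libraries labelled knockout 1, 2 and 3. Counts over the whole gene would include a transcript that lost only some exons, but the direction goes against the label, so the group is named by its label throughout. The summed level of 4 Y-linked genes was 67.5, 234 and 0 CPM in controls and at most 0.755 CPM under the knockout label, so the controls differ from each other in sex-linked content. The labels name no animal or culture of origin for any library, so p-values measure the spread between these libraries. With such unlike Y-linked levels the controls were not repeats of 1 RNA sample. Whether each library, in either group, stands for a separate animal is not stated. The summed level of the 6 microglial markers found in the table (of 8 listed) was at most 0.688 CPM in any library, and the defining genes of mature myelin, Mog, Mobp and Opalin, stayed under 2.5 CPM in every library. Slc1a3, 1 of 12 neural stem cell genes listed and named after its values were seen, stood between 1190 and 1882 CPM. Mean levels of the genes in that list ran from 2.25 to 2163 CPM. Their sum was 5929 to 7929 CPM in controls and 6406 to 7988 CPM under the knockout label. The sum of 15 oligodendrocyte progenitor genes was 8181 to 10678 CPM in controls and 7197 to 8038 CPM under the knockout label.

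The promoters searched, from RefSeq's table (GRCm38.p6), were those of Enpp6, Tcf7l2, Itpr2, Nkx2-2, Zfp488 and Nkx6-2, 6 members in all. The others, Bcas1, Myrf, Gpr17 and Tmem2, were not searched. Shown here are the promoter of Enpp6, the member with the largest fold change between the groups, and that of Zfp488, a member whose groups overlapped. Each is a window of 300 bases around the annotated start, most of it upstream, written 5′ to 3′ on the gene's strand, at chr8:46986637-46986936 on the plus strand for Enpp6 and at chr14:33978715-33979014 on the minus strand for Zfp488. Capitals mark matches to the motifs searched on both strands: ACAAAG or ACAATG for SOX factors, ATCAAAG for TCF/LEF factors such as Tcf7l2, CTGGCAC or CTGGTAC for MYRF, TNAAGTG for NKX2 factors and the E-box CAGCTG.
Enpp6: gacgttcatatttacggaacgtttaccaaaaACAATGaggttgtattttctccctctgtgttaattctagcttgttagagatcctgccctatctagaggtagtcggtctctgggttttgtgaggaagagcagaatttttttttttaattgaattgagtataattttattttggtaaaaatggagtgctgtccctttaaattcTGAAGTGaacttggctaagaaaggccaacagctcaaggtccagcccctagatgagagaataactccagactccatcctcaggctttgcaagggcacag
Zfp488: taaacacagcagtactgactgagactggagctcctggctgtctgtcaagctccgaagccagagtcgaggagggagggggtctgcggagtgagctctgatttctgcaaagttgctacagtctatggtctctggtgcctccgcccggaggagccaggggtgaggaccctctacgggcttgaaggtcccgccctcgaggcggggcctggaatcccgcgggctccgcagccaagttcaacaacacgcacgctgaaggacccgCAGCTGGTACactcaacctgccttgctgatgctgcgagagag
In Enpp6 the SOX match begins 219 bases and the NKX2 match 48 bases before the start. In Zfp488 the E-box and the MYRF match overlap each other, beginning 8 and 11 bases after the start. Over 32851 promoters of the same length, a SOX match was found in 28.6%, an NKX2 match in 11.5%, an E-box in 16.3%, a MYRF match in 7.10% and a TCF/LEF match in 3.73%. Of the 6 members searched, 2 held a SOX match, 3 an NKX2 match, 1 an E-box, 1 a MYRF match and 0 a TCF/LEF match. Tcf7l2 was searched in 2 windows, 1 for each annotated start, and its NKX2 match lies in the second alone, so its chance of a match is not that of a single promoter. These are descriptions of letters and say nothing of binding.

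Gpr17 was by far the most abundant of the 10 per length of transcript, and Nkx6-2 the rarest. On the scale of CPM per kilobase of exon, Gpr17 had a mean level of 96.8 ± 22.1 in the controls and 151.7 ± 39.7 under the knockout label (SD, n = 3 each). Bcas1 followed at 14.5 ± 9.64 and 36.8 ± 13.9. The next control levels per kilobase were 11.5 ± 1.52 for Itpr2, 8.75 ± 0.859 for Nkx2-2, 6.98 ± 1.77 for Tmem2 and 6.36 ± 2.62 for Zfp488, then 2.48 ± 1.16 for Myrf, 1.91 ± 0.455 for Tcf7l2, 1.87 ± 1.47 for Enpp6 and 0.80 ± 0.213 for Nkx6-2. Among the controls, the levels of Bcas1 overlapped those of Itpr2, Nkx2-2, Tmem2 and Zfp488, so its place above them is not clear of its spread. Overlap was also seen among Nkx2-2, Tmem2 and Zfp488, among Myrf, Tcf7l2 and Enpp6, and between Enpp6 and Nkx6-2. Under the knockout label the level of Enpp6 per kilobase, 5.75 ± 1.95, stood above that of Tcf7l2, 2.60 ± 0.569, with no overlap between the 2 genes.

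**Figure D1:**
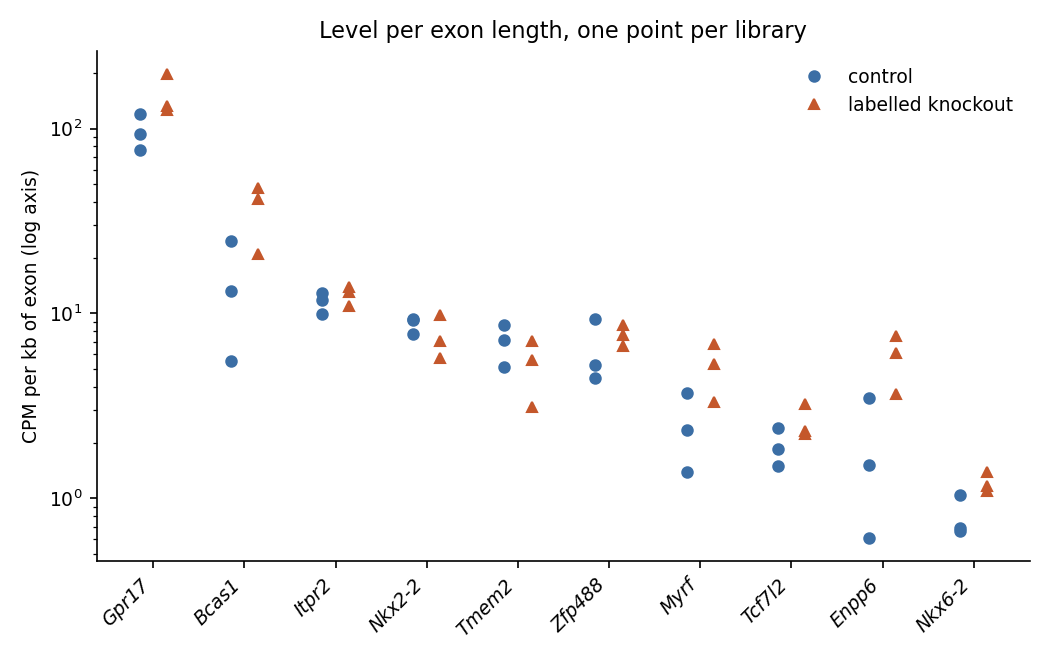
Level of each premyelinating gene as CPM per kilobase of exon (log axis), one point per library, circles for the 3 controls and triangles for the 3 libraries labelled knockout, genes ordered by their mean control level. Gpr17 lies above all other genes in every library, and Enpp6 spreads over the widest range among the controls.

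Among the members that are not transcription factors, Enpp6, Bcas1 and Gpr17 had higher mean levels under the knockout label, each with an unadjusted p under 0.05, while the groups overlapped in Itpr2 and Tmem2. Enpp6 encodes a membrane-anchored choline phosphodiesterase and is known in mouse as an early mark of differentiating oligodendrocytes. It stood at 9.72, 3.93 and 22.4 CPM in controls 1, 2 and 3 and at 39.0, 23.4 and 48.2 CPM in libraries labelled knockout 1, 2 and 3. The groups did not overlap, but the library labelled knockout 2 was close to control 3. The edgeR log2 fold change of Enpp6 was 1.62 ± 0.59 (SE), a ratio of means of 3.07, while the highest control was 5.69 times the lowest. With each library left out in turn it ran from 1.20 without control 2 to 2.44 without control 3.

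Bcas1 encodes a protein of oligodendrocytes that are starting to myelinate. Its level was 49.8, 21.0 and 93.3 CPM in controls and 179.9, 79.6 and 157 CPM under the knockout label. Control 3 lay above the library labelled knockout 2, so the groups overlapped. The log2 fold change of Bcas1 was 1.35 ± 0.53 (SE), with a 4.44-fold range among the controls and a 2.26-fold range under the knockout label.

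Gpr17, an orphan receptor known in mouse to hold back the final maturation of the cells that express it, had many counts in every library, from 6916 to 17899. It stood at 398, 485 and 625 CPM in controls, against 654, 685 and 1026 CPM under the knockout label. The groups did not overlap, and the library labelled knockout 3 was well above the rest. The log2 fold change of Gpr17 was 0.65 ± 0.25 (SE), smaller than that of Enpp6 or Bcas1, and the controls varied 1.57-fold. Without the library labelled knockout 3 the log2 fold change of Gpr17 was 0.41. Lims2, on the other strand, shares exon sequence with Gpr17, at a mean of 36.1 CPM where Gpr17 had 645.5 CPM, and without the strand setting reads of the pair cannot be told apart.

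Itpr2 and Tmem2 did not follow this direction beyond their spread. Itpr2, a calcium release channel of the endoplasmic reticulum that astrocytes also express, stood at 191, 147 and 175 CPM in controls, against 207, 194 and 162 CPM under the knockout label, with overlapping groups and a log2 fold change of 0.14 ± 0.15 (SE). Tmem2, now named Cemip2, encodes a cell surface protein that degrades hyaluronan. It stood at 61.2, 73.5 and 43.6 CPM in controls and at 60.5, 47.7 and 26.6 CPM under the knockout label, a log2 fold change of -0.40 ± 0.32 (SE). The groups overlapped, and against control 3 alone the log2 fold change of Tmem2 changed its sign, to 0.04.

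**Figure D2:**
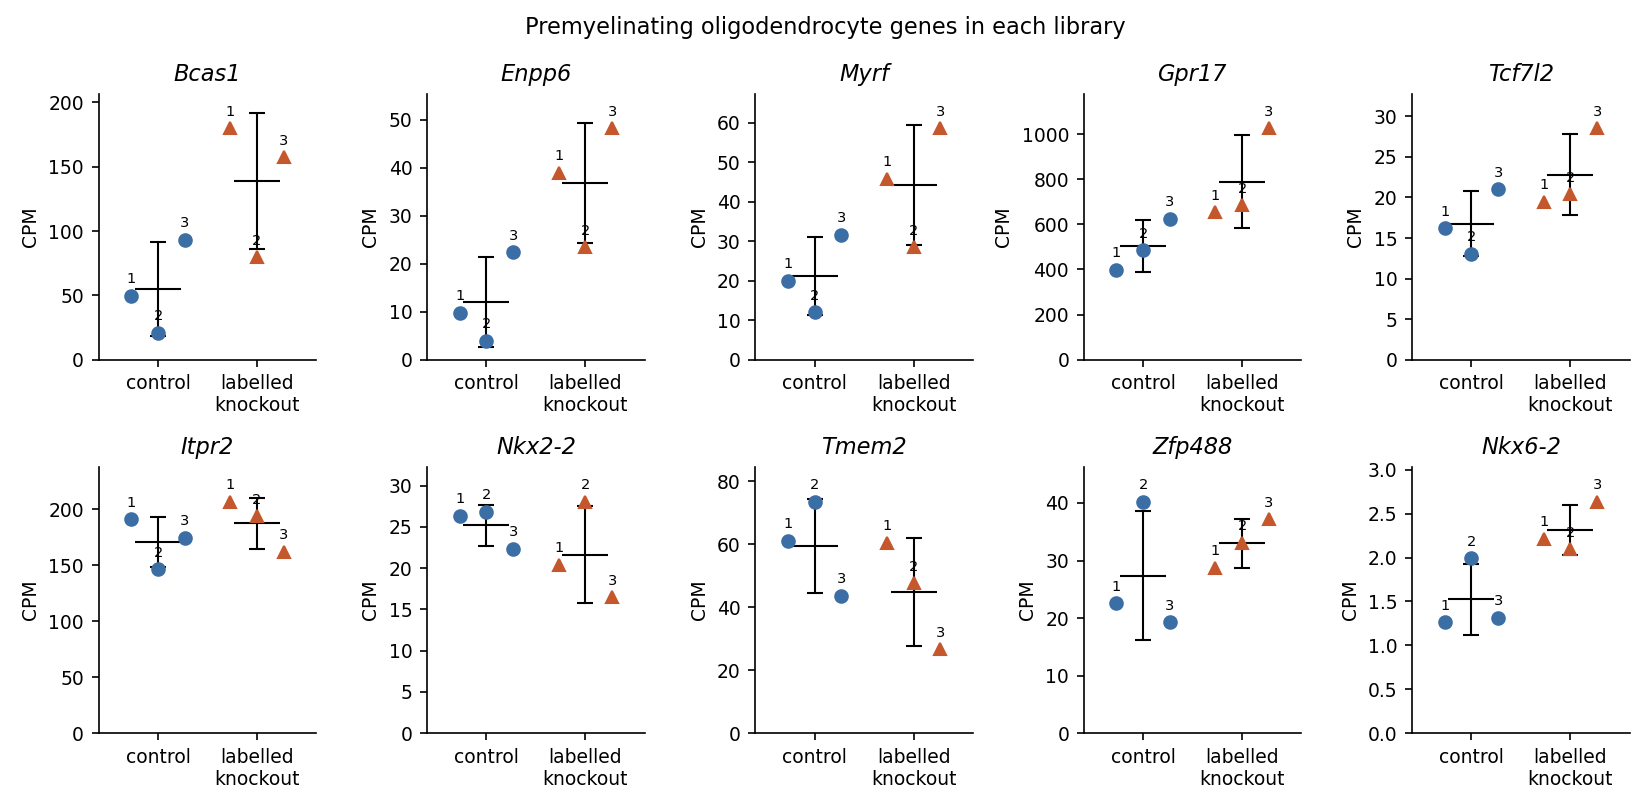
CPM of each of the 10 premyelinating genes in each library, with a linear axis from 0 in each panel; circles are controls, triangles libraries labelled knockout, numbers are replicate numbers, and bars show the mean and SD of 3 libraries. Enpp6, Gpr17 and Nkx6-2 have groups that do not overlap, while in Bcas1 and Myrf control 3 lies above the library labelled knockout 2.

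Among the transcription factors, Myrf differed most. Myrf encodes a membrane-bound precursor that releases a DNA-binding fragment, which activates myelin genes. Its level was 20.0, 11.95 and 31.7 CPM in controls and 45.8, 28.4 and 58.6 CPM under the knockout label. Control 3 lay above the library labelled knockout 2, and all the other libraries labelled knockout lay above the controls. The log2 fold change of Myrf was 1.06 ± 0.39 (SE), with a 2.65-fold range among the controls.

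Tcf7l2, an HMG-box factor that binds beta-catenin and is known in mouse to be made briefly as oligodendrocytes differentiate, stood at 16.2, 13.1 and 21.0 CPM in the controls. Under the knockout label it stood at 19.5, 20.4 and 28.5 CPM, overlapping the controls, with a log2 fold change of 0.44 ± 0.24 (SE), or 0.25 without the library labelled knockout 3 and 0.29 without control 2. Nkx2-2, a homeodomain factor that in mouse represses the progenitor gene Pdgfra, had 26.3, 26.8 and 22.3 CPM in controls and 20.4, 28.0 and 16.4 CPM under the knockout label. Its groups overlapped, and its log2 fold change was -0.22 ± 0.22 (SE).

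Zfp488, a zinc finger partner of Olig2, had 22.6, 40.2 and 19.3 CPM in controls and 28.7, 33.1 and 37.1 CPM under the knockout label. Control 2 was the highest of the 6 libraries, and the log2 fold change was 0.27 ± 0.28 (SE). With each library left out in turn, the log2 fold change of Zfp488 ran from 0.076 without control 3 to 0.65 without control 2. Nkx6-2, a homeodomain factor of later oligodendrocytes, had 22, 37 and 23 counts in the controls and 41, 35 and 46 in the libraries labelled knockout. This is 1.27, 1.99 and 1.32 CPM against 2.21, 2.09 and 2.64 CPM, without overlap. The raw counts did overlap, as control 2 had 37 and the library labelled knockout 2 had 35, so scaling alone parts the groups. Even the exact Poisson 95% intervals of the lowest count (13.8 to 33.3) and of the highest (33.7 to 61.4) almost meet. These intervals cover counting error only. The log2 fold change of Nkx6-2 was 0.60 ± 0.34 (SE), and its exons overlap those of Inpp5a (29.7 CPM on average) on the other strand, so its reads are uncertain.

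Together, 8 of the 10 genes had a fold change above 0 and 2 below, and their median log2 fold change was 0.52, where the median over the 15087 genes tested was 0.00. By edgeR's quasi-likelihood test with Benjamini-Hochberg adjustment, 0 of the 10 passed an adjusted p of 0.05 (adjusted p = 0.998 for each), and 0.0% of all genes did. By edgeR's test 4 of the 10 had an unadjusted p under 0.05, all higher under the knockout label, against 1.98% of all genes tested in that direction. By edgeR's quasi-likelihood test these were Enpp6 (unadjusted p = 0.0276), Myrf (unadjusted p = 0.0303), Gpr17 (unadjusted p = 0.0344) and Bcas1 (unadjusted p = 0.0389). DESeq2 called 0 of the 10, where it called 0.0464% of all genes, and limma-voom 0, where it called 0.0%. Both gave the same 4 an unadjusted p under 0.05, higher, against 2.19% of all genes by DESeq2 and 2.05% by limma-voom. The groups did not overlap in CPM in 3 of the 10, all higher under the knockout label, against 4.88% of genes tested in that direction. Nkx6-2 is among these 3, though its raw counts overlapped. The members and lists were chosen with earlier results of these data known. Shares over all genes, here and below, therefore describe these lists and do not test them. The number of members at an unadjusted p under 0.05 by edgeR was 0 without control 1 or without the library labelled knockout 3. It was 1 without the library labelled knockout 1 (Gpr17) and 1 without a filter on low counts (Gpr17). Without control 2 it was 2, Enpp6 and Zfp488, so Bcas1, Myrf and Gpr17 dropped out.

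Libraries with the same replicate number varied together across genes, and within these pairs the differences were steadier. From control to the library labelled knockout of the same number, the log2 level of Enpp6 differed by 1.99, 2.54 and 1.10, that of Bcas1 by 1.85, 1.92 and 0.75, that of Myrf by 1.19, 1.24 and 0.89, and that of Gpr17 by 0.72, 0.50 and 0.71. Tcf7l2 and Nkx6-2 were also higher in every pair, making 6 of 10 members, against 18.0% of all genes. Tmem2 was lower in every pair, by 0.01, 0.62 and 0.71, and again 18.0% of all genes were. The other members, Itpr2, Nkx2-2 and Zfp488, went both ways.

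With the replicate number as a block, DESeq2 called Enpp6, Bcas1, Myrf and Gpr17 higher, 4 of the 10 against 0.994% of all genes in that direction. The log2 fold changes by DESeq2 with the block were 1.87 ± 0.29 (SE) for Enpp6, 1.51 ± 0.24 for Bcas1, 1.10 ± 0.18 for Myrf and 0.64 ± 0.13 for Gpr17, with adjusted p of 9.9e-08, 2.5e-07, 8.6e-07 and 1.0e-04. EdgeR with the block called 0 of the 10 and 0.0% of all genes. Its smallest adjusted p among the members were 0.0896 for Myrf, 0.107 for Enpp6, 0.108 for Gpr17 and 0.114 for Bcas1. At an unadjusted p under 0.05 edgeR with the block had 5 members higher, Tcf7l2 being the added one, against 5.69% of genes, and 1 lower, Tmem2, against 6.77%. Leaving out a numbered pair left DESeq2 with the block 3 of the 4 calls each time: Gpr17 was lost without pair 1 and without pair 3, and Bcas1 without pair 2.

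**Figure D3:**
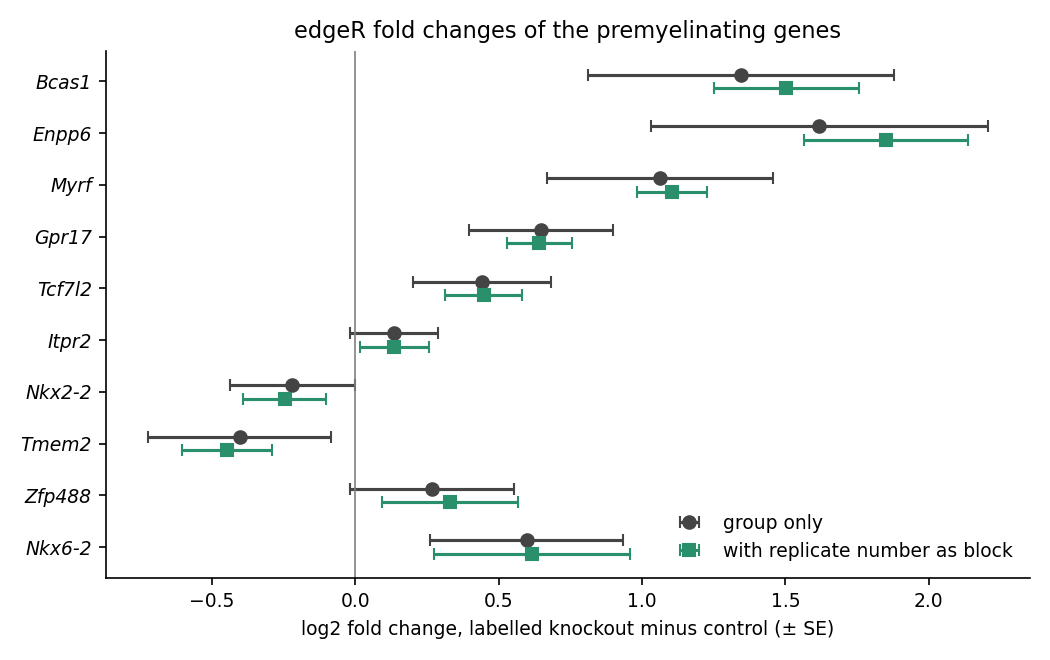
EdgeR log2 fold change of each premyelinating gene, libraries labelled knockout minus controls, with bars of 1 SE, from the fit on group alone (circles) and the fit with the replicate number as a block (squares). The estimates move little, and the bars of Bcas1, Enpp6, Myrf and Gpr17 shrink under the block.

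Within each group, the library with the most mitotic signal had the least Enpp6, Bcas1 and Myrf. The summed level of 10 mitotic genes was 1501, 2736 and 972 CPM in controls 1, 2 and 3 and 660, 1772 and 464 CPM in libraries labelled knockout 1, 2 and 3. Control 2, highest in mitotic genes, was lowest in Enpp6, Bcas1, Myrf, Tcf7l2 and Itpr2, 5 of the 10 members, and the library labelled knockout 3, lowest in mitotic genes, was highest in Enpp6, Myrf, Gpr17, Tcf7l2 and Nkx6-2. Within the controls Enpp6, Bcas1 and Myrf all ran from control 2 through control 1 to control 3, the reverse of the mitotic sum. Among the libraries labelled knockout, number 2 was highest in mitotic genes and lowest in these 3 genes. All 10 mitotic genes had a fold change below 0, with a median log2 fold change of -0.88, and edgeR had 0 of them at an unadjusted p under 0.05, while DESeq2 with the block called all 10 lower, against 2.09% of genes. The part of the mitotic level in the differences of the members was not tested.

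**Figure D4:**
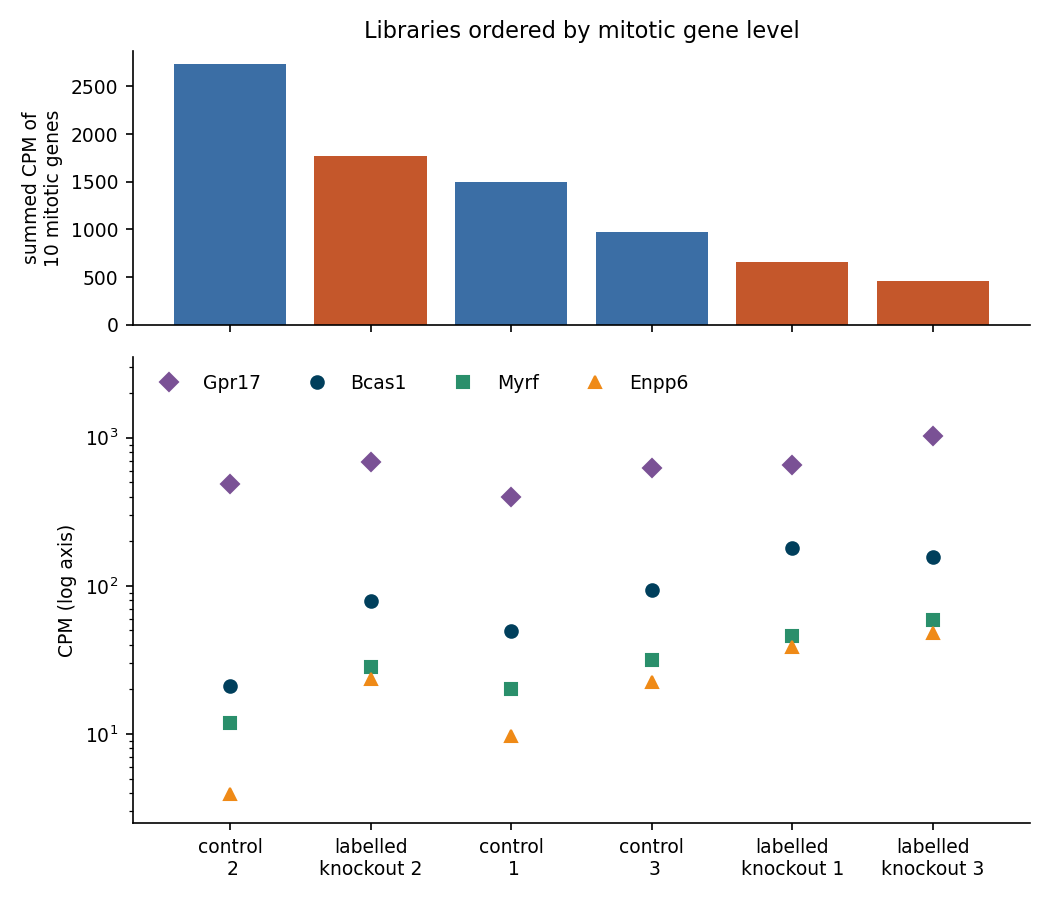
Upper panel, summed CPM of 10 mitotic genes in each library, libraries ordered from highest to lowest, with controls in blue and libraries labelled knockout in orange. Lower panel, CPM of Gpr17, Bcas1, Myrf and Enpp6 (log axis) in the same order. Control 2 has the most mitotic signal and the least Bcas1, Myrf and Enpp6.

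The summed level of 12 astrocyte markers ran from 1780 to 5336 CPM in controls and from 3423 to 7780 CPM under the knockout label, so the groups overlapped. Of the 11 tested, 10 had a fold change above 0, with a median log2 fold change of 0.63 (0.86 by edgeR with the block), larger than the members' 0.52. By edgeR 3 had an unadjusted p under 0.05, all higher (Ntsr2, Gfap and Agt), against the same 1.98% of genes. DESeq2 with the block called 4 astrocyte genes higher, as many as among the members: Gfap, Aqp4, Gja1 and Ntsr2, against 0.994% of genes. The sum was lowest in control 2 and highest in the library labelled knockout 3, as for several of the members. With the summed Y-linked level as a covariate, the edgeR log2 fold changes were 0.91 for Enpp6, 0.70 for Bcas1, 0.59 for Myrf and 0.55 for Gpr17, and none of the 4 had an unadjusted p under 0.05. Against control 3 alone, which had no Y-linked counts, they were 0.72, 0.57, 0.48 and 0.33. The part of astrocyte genes in the differences of the members was not tested. In bulk libraries more cells of a type and more RNA per cell cannot be told apart.

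Other genes of the committed and newly formed stages mostly had fold changes above 0, as the members did. Of 18 such genes listed, 16 were tested, 15 with a fold change above 0 and 1 below, and the median log2 fold change was 0.38. EdgeR called 0 of them and had 6 higher and 0 lower at an unadjusted p under 0.05, again beside 1.98% of all genes. Mycl, a member of the MYC family, stood at 42.8 ± 3.55 CPM in controls and 62.8 ± 4.53 CPM under the knockout label (SD, n = 3 each), and its log2 fold change was 0.55 ± 0.12 (SE). Lims2, a focal adhesion adaptor that overlaps Gpr17, had a log2 fold change of 0.67 ± 0.16 and the kinesin gene Kif19a one of 0.84 ± 0.24 (SE). Sox10, the factor that acts with Myrf on myelin genes, was 11.3, 2.96 and 5.32 CPM in controls and 22.01, 30.3 and 13.8 CPM under the knockout label. Its groups did not overlap, but its highest library was the library labelled knockout 2, which was the lowest of its group in Enpp6, Bcas1 and Myrf.

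Genes of the neighbouring stages split. Of 18 myelin genes, 12 were tested, 10 with a fold change above 0, with a median log2 fold change of 0.64. By edgeR 4 of them had an unadjusted p under 0.05, all higher, against 1.98% of all genes in that direction. Mbp, the main myelin basic protein gene and a target of Myrf, stood at 18.7, 4.2 and 11.5 CPM in controls and 95.2, 39.5 and 78.2 CPM under the knockout label. Cnp, an early myelin enzyme gene, had a log2 fold change of 0.90 ± 0.21 (SE) and Cldn11, a tight junction gene of myelin, 0.81 ± 0.32. Of 15 progenitor genes, 14 were tested, 9 with a fold change below 0, with a median log2 fold change of -0.20. EdgeR had 3 of these lower at an unadjusted p under 0.05, against 1.5% of all genes, and 0 higher. These were Cspg4, the NG2 proteoglycan, at a log2 fold change of -1.02 ± 0.33, Xylt1, which starts the sugar chains of proteoglycans, at -0.68 ± 0.24, and the lineage factor Olig2 at -0.53 ± 0.19 (SE). Cspg4 stood at 310, 688 and 311 CPM in controls and 219, 188 and 238 CPM under the knockout label, with control 2 well above the other controls. Pdgfra, the receptor that keeps progenitors dividing, stood at 119, 111 and 38.8 CPM in controls and 98.0, 91.5 and 99.2 CPM under the knockout label, with no direction beyond its spread. By edgeR 0 genes of these lists passed over all genes tested. DESeq2 on group alone called Mbp (adjusted p = 0.00266), 1 of the 7 genes it called in all. DESeq2 with the block called 4 of the other committed-stage genes and 4 of the myelin genes higher, against 0.994% of all genes, and 3 of the progenitor genes lower, against 2.09%. Cspg4 was not among these 3 (adjusted p = 0.425 by DESeq2 with the block). The difference between the stages was not tested.

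**Figure D5:**
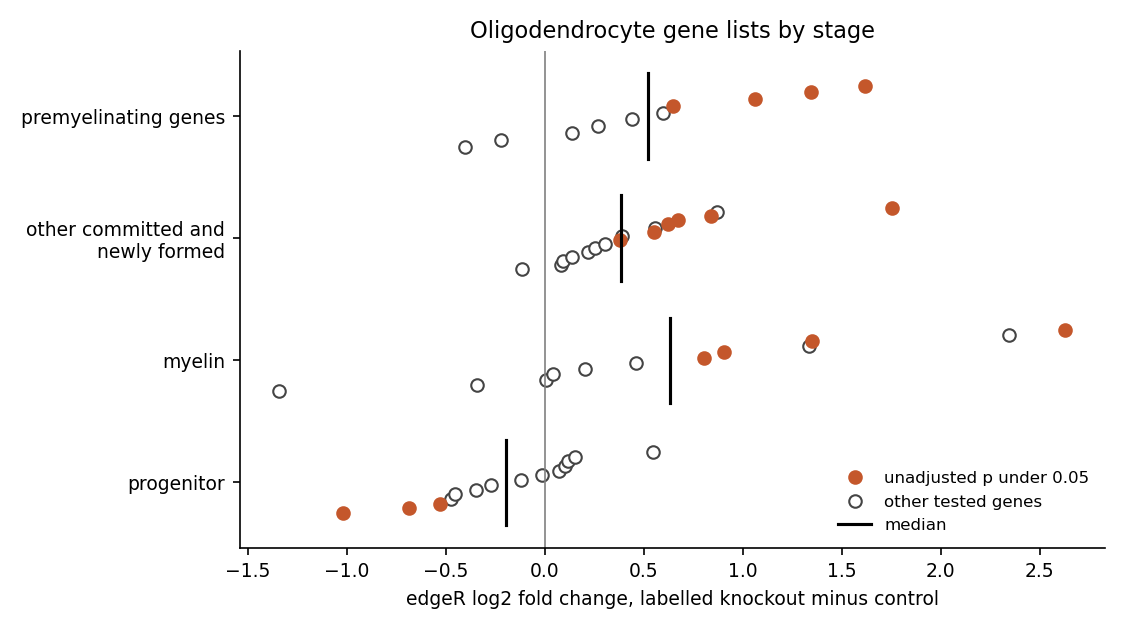
EdgeR log2 fold change, libraries labelled knockout minus controls, of each tested gene in 4 lists: the premyelinating genes, other genes of the committed and newly formed stages, myelin genes and progenitor genes. Filled points had an unadjusted p under 0.05, and black lines are medians, at 0.52, 0.38, 0.64 and -0.20.

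The regulators that promote or hold back differentiation showed no common direction. Of 20 genes that promote oligodendrocyte differentiation, 5 of them members, 9 had a fold change above 0 and 11 below, with a median log2 fold change of -0.01. At an unadjusted p under 0.05 by edgeR were Sox10 and Myrf, higher, and Olig2, lower. Of all genes, 1.98% were higher and 1.5% lower at that level. Of 14 genes that hold differentiation back, 6 were above 0 and 8 below. At an unadjusted p under 0.05 was 1 of them, lower, against the same 1.5% of all genes. This was Jag1, a Notch ligand, with a level of 43.5 ± 12.1 CPM in controls and 26.1 ± 2.78 CPM under the knockout label (SD, n = 3 each). Tcf7l2 acts with the Wnt pathway, and of 10 tested genes of that pathway 2 were above 0 and 8 below, with a median log2 fold change of -0.21. Axin2, a direct Wnt target, stood at 38.8 ± 2.16 CPM in controls and 31.7 ± 1.49 CPM under the knockout label. Its log2 fold change was -0.29 ± 0.12 (SE), unadjusted p = 0.0483 by edgeR's quasi-likelihood test. Axin2 was the single gene of the Wnt list at an unadjusted p under 0.05 by edgeR, lower, against the same 1.5% of all genes.

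Relatives of the members in the same gene families were split: 7 of 14 tested had a fold change above 0 and 7 below, with a median log2 fold change of 0.05. Enpp2, which encodes the secreted enzyme autotaxin and is also made by oligodendrocytes, was at a log2 fold change of 0.73 ± 0.27 (SE). Enpp2 was the single relative at an unadjusted p under 0.05 by edgeR, higher, against 1.98% of all genes in that direction. Itpr1, the main neuronal relative of Itpr2, had 11.1, 11.2 and 16.5 CPM in controls and 15.5, 23.8 and 14.96 CPM under the knockout label, in the order of replicates.

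In mm10, per the file's coordinates, Bcas1 (ENSMUSG00000013523) lies on the minus strand at chr2:170346991-170427845, and antisense RNAs overlapping its exons had at most 1.84 CPM on average. Enpp6 (ENSMUSG00000038173) lies on the plus strand at chr8:46986887-47096762, with no overlapping gene in the table. Myrf (ENSMUSG00000036098), on the minus strand at chr19:10208272-10240748, has none either. Gpr17 (ENSMUSG00000052229) lies on the minus strand at chr18:31942997-31949636. The table places Tcf7l2 (ENSMUSG00000024985) and Tmem2 (ENSMUSG00000024754) on the plus strand of chromosome 19, and Nkx2-2 (ENSMUSG00000027434) on the minus strand of chromosome 2, where an antisense RNA overlapping its exons had 2.32 CPM. Itpr2 (ENSMUSG00000030287) is on chromosome 6, Zfp488 (ENSMUSG00000044519) on chromosome 14 and Nkx6-2 (ENSMUSG00000041309) on chromosome 7, all on the minus strand.

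The authors' deposited table marked none of the 10 as significant. In the authors' deposited table the log2 ratio of control over knockout was -1.62 for Enpp6 (adjusted p = 0.457), -1.35 for Bcas1 (adjusted p = 0.669), -1.06 for Myrf (adjusted p = 0.755) and -0.65 for Gpr17 (adjusted p = 1), the same directions as in the fits above.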

How the data were processed

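RNA-seq libraries were compared in 3 controls and 3 libraries labelled knockout. Per the labels' protocols, 2 µg of TRIzol-extracted RNA per sample went into NEBNext Ultra libraries. Per the submitters' processing notes, HISAT2 2.1.0, Bowtie2 2.2.3 and mm10 were used, in roles they leave unstated. Counting tool, strand setting and annotation release: not given in the sources used here. The deposited table holds raw counts per gene, per the file headers. It also holds the authors' mean signal of scaled counts, fold ratio, log2 ratio, p-value and adjusted p-value, each control over knockout where it has a direction.

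Genes were tested with edgeR 4.0.16 (R 4.3.3): TMM factors, filterByExpr by group with a minimum count of 10 and a minimum total of 15, then glmQLFit with robust dispersions, glmQLFTest and Benjamini-Hochberg adjustment over 15087 genes at 0.05. Standard errors come from the F statistic. Levels are TMM-scaled CPM. Their log2 values add a prior count of 2. Exon lengths are unions over GENCODE M21 (GRCm38), in which 99.8% of gene IDs were found. Alternatives were DESeq2 1.42.0, limma-voom (limma 3.58.1), RLE or total-count scaling, other filters, the replicate block, a Y-linked covariate, libraries left out in turn and control 3 alone; the block without each pair, and the count at an unadjusted p under 0.05 under every alternative, were added after seeing the data. On simulated counts DESeq2, with or without the block, called more unchanged genes than edgeR did, so its calls were the less strict there. Those counts had no effect of replicate number, and their dispersions were estimated on group alone. They therefore cannot show how strict DESeq2 with the block is on these libraries.

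Replicate numbers come from the titles. Deviations of log2 CPM from the group means had, between libraries of 1 number, correlations over genes of 0.43, 0.35 and 0.51, so the numbers were taken to pair the libraries, though the labels do not state it. No 2 libraries agreed within sampling noise (chi-square per degree of freedom at least 19.4). The members and lists were chosen with earlier results of these data known. Named genes are Sirt6, all members and, per list, up to 4 genes at an unadjusted p under 0.05 with at least 2 CPM, or else the most abundant; Lims2 and Kif19a were named by it, while Slc1a3, Pdgfra, Itpr1, Aqp4, Gja1, Dcx, Mog, Mobp and Opalin were chosen after their values were seen.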

Additional observations from a re-analysis of the deposited data

How the results depend on the processing

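EdgeR on group alone called 0 genes and 0 members. Over all genes the count was 7 with DESeq2, 1 without a filter, 466 with the replicate block in DESeq2, and 0 to 2 with each library left out. With the block and without pair 1, 2 or 3 it was 6, 271 and 11 by edgeR and 125, 339 and 132 by DESeq2, fits on 4 libraries. Members called were 4 with the replicate block in DESeq2, 3 without any 1 of the pairs, and by edgeR with the block 2 without pair 2 and 2 without pair 3. The number of members at an unadjusted p under 0.05, 4 by edgeR on group alone, became 1 without a filter (Gpr17) or with the Y-linked covariate (Zfp488). It was 7 by edgeR with the block without pair 2, and 0 to 5 with each library left out, not always among the same 4. The median log2 fold change of the members stayed within 0.21, the SD between replicates, of its value of 0.52 under each alternative run, from 0.33 to 0.64 with each library left out. With each library left out, the log2 fold change ran from 0.96 to 1.98 for Bcas1, 0.78 to 1.48 for Myrf, 0.41 to 0.84 for Gpr17, 0.04 to 0.23 for Itpr2, -0.44 to -0.06 for Nkx2-2, -0.68 to -0.13 for Tmem2 and 0.48 to 0.84 for Nkx6-2. Among single members only the direction of Tmem2 changed, to a log2 fold change of 0.044 against control 3 alone. The cause was not tested. Depth limits Nkx6-2, with 22 to 46 counts.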

Other observations

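Markers of other cell types were read beside the members. Of 9 tested genes of neuroblasts and neurons, 6 had a fold change above 0 and 3 below. By edgeR's quasi-likelihood test 2 had an unadjusted p under 0.05, both higher, against 1.98% of all genes in that direction. These were Gad1, which encodes an enzyme that makes GABA, with a log2 fold change of 0.78 ± 0.23 (SE), and Tubb3, a neuronal tubulin, with 0.58 ± 0.22. DESeq2 with the block called 2 of the 9 higher, Gad1 and Dcx, against 0.994% of all genes. Dcx, a microtubule protein of migrating neuroblasts named after its values were seen, stood at 42.3, 12.8 and 14.1 CPM in controls 1, 2 and 3 and at 134, 21.4 and 52.95 CPM in the libraries labelled knockout 1, 2 and 3. It was higher in all 3 pairs (adjusted p = 1.3e-06 by DESeq2 with the block), while its groups overlapped. Of 12 neural stem cell genes, 10 were above 0 and 2 below. Prom1 (0.81 ± 0.31) was the single one at an unadjusted p under 0.05 by edgeR, higher, against the same 1.98% of all genes. Of 6 tested Schwann and neural crest genes, 1 was above 0 and 5 below. Pou3f1, a POU-domain factor, stood at 25.3, 60.03 and 24.96 CPM in controls 1, 2 and 3 and at 14.7, 13.9 and 3.67 CPM in the libraries labelled knockout 1, 2 and 3. The summed level of endothelial and mural markers was at most 6.46 CPM in any library, and that of ependymal markers ran from 15.2 to 61.9 CPM in the controls and from 24.4 to 46.8 CPM under the knockout label. By edgeR 0 of these genes passed the adjustment over all genes.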
